A study of Mus musculus with 14 samples.

Results

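The zinc finger genes of the mouse that bear the symbol Zfp and a number make up one of the largest families of the genome, and their methylation was read from 14 lists of methylated regions. A gene was a member when it was protein-coding, lay on chr1 to chr19 of the mouse genome mm9 (NCBI build 37) and had a symbol of Zfp followed by digits only, with 1 such gene left out. That gave 332 genes beside 20942 other protein-coding genes. A peak was a member when it touched the body of such a gene or the 1 kb on either side, and 6051 of 1012200 peaks did so. The 5′ end, taken as 1 kb on each side of the annotated start, and the last exon of the transcript with the longest coding sequence were measured apart.

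Zfp genes encode proteins that hold zinc ions with pairs of cysteine and histidine residues (C2H2 fingers), each finger being a short loop that reads a few bases of DNA. Fingers come in tandem arrays, and in most of these genes the whole array is encoded by the long last exon, so that the exon is a repeat of near-alike coding units. Many members also carry a KRAB domain, which recruits the corepressor Trim28 (KAP1) and with it histone and DNA methylation, and such proteins are best known for silencing transposons and for keeping imprints. KRAB zinc finger genes lie in tandem clusters that arose by repeated duplication. Among the 332 genes, 142 held a KRAB pattern and 190 did not, 272 held at least 5 fingers, the median was 10 fingers, and 15 held no finger that the search could find. Chromosome 7 held 86 of them, chromosome 17 held 39, chromosome 13 held 31 and chromosome 8 held 25.

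Methylated DNA was captured by a methyl-CpG binding domain protein and sequenced (MBD-seq), and each list gives the peaks of 1 sample. The 14 samples were 4 Aid+/+ induced pluripotent stem (iPS) clones, 4 Aid-/- iPS clones in which Aid, a cytidine deaminase of B cells, was disrupted, 3 embryonic stem (ES) lines and 3 Aid+/+ embryonic fibroblast (MEF) cultures. All iPS clones were male, carried the Nanog-GFP reporter, came from fibroblasts reprogrammed with retroviral factors, were grown on gelatin in medium with LIF and puromycin, and were taken at passage 6, each sample being 1 clone. The MEFs also carried Nanog-GFP, came from individual embryos of 13.5 days and were taken at passage 3, and both cell types had a mixed background of C57BL6, DBA and 129S4. The ES lines were RF8 (ES 1, 129SV), MG1.19 (ES 2, 129Ola) and a C57BL6 line (ES 3), so the ES lines differed from the clones in strain, and the labels gave them no Aid genotype. No sample was treated. The clones, lines and cultures were the replicates, and every p-value below measures the spread among them only.

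Depth differed between samples, with 20124759 to 36919117 tags and 6654272 to 19603100 after the authors' filter on duplicates, and between 31650 peaks (ES 2) and 106408 peaks (Aid+/+ iPS 4). ES 2 stood apart with the fewest peaks of all. The peaks at Zfp genes numbered 167 in ES 2 and 621 in ES 3, and were 0.528% to 0.731% of all peaks of a sample. A peak marks DNA with enough methylated CpGs to be captured above the local background, so a stretch with few CpGs can lack a peak while methylated, and a higher tag count cannot tell more methylated cells from more methylated CpGs per cell.

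The finger-coding repeats themselves show what the capture could bind. Below are 7 stretches of 180 bases from the finger arrays of last exons, read from mm9 on the coding strand with every CpG in capitals. Zfp623 and Zfp398 had a last exon peak in all 14 samples, and Zfp775 and Zfp239 carried more signal in MEFs. Zfp784 had a last exon peak in every iPS clone and ES line and in no MEF. Zfp445 and Zfp677 had no last exon peak in any sample.
Zfp623, last exon, chr15:75778391-75778570, plus strand: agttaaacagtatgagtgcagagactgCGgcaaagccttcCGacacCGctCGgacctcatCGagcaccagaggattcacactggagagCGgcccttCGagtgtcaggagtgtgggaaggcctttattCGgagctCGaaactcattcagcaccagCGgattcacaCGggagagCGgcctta
Zfp398, last exon, chr6:47816598-47816777, plus strand: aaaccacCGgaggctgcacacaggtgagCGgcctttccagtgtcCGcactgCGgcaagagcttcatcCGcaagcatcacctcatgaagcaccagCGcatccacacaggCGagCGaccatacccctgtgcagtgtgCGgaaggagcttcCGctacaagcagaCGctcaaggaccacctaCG
Zfp775, last exon, chr6:48569709-48569888, plus strand: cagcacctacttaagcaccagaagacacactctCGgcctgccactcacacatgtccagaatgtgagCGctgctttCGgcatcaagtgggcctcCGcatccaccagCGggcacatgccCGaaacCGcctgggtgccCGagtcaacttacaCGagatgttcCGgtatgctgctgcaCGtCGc
Zfp239, last exon, chr6:117821567-117821746, plus strand: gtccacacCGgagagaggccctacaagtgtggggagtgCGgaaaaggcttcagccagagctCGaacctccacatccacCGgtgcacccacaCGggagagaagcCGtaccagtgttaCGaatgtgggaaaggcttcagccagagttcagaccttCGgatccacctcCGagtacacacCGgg
Zfp784, last exon, chr7:4987345-4987524, minus strand: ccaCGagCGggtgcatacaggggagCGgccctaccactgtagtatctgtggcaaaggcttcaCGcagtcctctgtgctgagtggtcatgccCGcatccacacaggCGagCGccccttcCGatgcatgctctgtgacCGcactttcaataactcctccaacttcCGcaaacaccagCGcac
Zfp445, last exon, chr9:122761721-122761900, minus strand: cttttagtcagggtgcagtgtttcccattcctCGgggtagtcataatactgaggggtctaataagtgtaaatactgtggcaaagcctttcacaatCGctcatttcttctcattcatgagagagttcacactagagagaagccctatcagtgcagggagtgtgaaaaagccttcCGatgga
Zfp677, last exon, chr17:21534783-21534962, plus strand: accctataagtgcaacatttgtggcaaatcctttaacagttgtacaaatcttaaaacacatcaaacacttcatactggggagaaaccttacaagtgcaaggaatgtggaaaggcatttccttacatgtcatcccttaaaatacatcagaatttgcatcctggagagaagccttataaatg
The lines differed in CpGs. The Zfp623, Zfp398 and Zfp775 stretches held 12 CpGs each, Zfp784 held 11 and Zfp239 held 10, while Zfp445 held 3 and Zfp677 held 0. A peak had its highest point in the coding part of the last exon in 14 samples for Zfp623 and Zfp398. The same held in 13 samples for Zfp775, 11 for Zfp784 and 8 for Zfp239. Whether each of these peaks covered the printed bases was not tested. Where a gene had such peaks, its stretch was placed at the median of their highest points. For Zfp445 and Zfp677 it was placed at the middle of the array, so the CpG contrast rests in part on this choice. The whole arrays held 32 CpGs in 987 bases at Zfp623, 31 in 573 at Zfp398 and 79 in 1257 at Zfp775. They held 27 in 567 at Zfp239, 27 in 630 at Zfp784, 29 in 1536 at Zfp445 and 7 in 1338 at Zfp677. These genes were picked to show the range, and the counts over all members are given below.

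Peaks at Zfp genes lay mostly inside the genes and away from their starts. Averaged over the 14 samples, 31.3% of them touched a last exon (25.6% to 39.7%), 21.2% another exon, 41.7% only an intron, 3.16% the 5′ end (1.61% to 5.60%) and 2.66% only the flanks. A few genes took many of the peaks, wherever they lay: 10 genes held 29.98% of all pairs of a peak and a gene, led by Zfp536 with 392, Zfp423 with 265 and Zfp407 with 261 over the 14 samples. Of the 332 genes, 96 (28.9%) had no peak in any sample and 70 (21.1%) had one in every sample.

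At the 5′ end, few Zfp genes carried a peak. The genes with a 5′ peak numbered 15, 12, 9 and 14 in Aid+/+ clones 1 to 4, 10, 15, 15 and 23 in Aid-/- clones 1 to 4, 8, 6 and 22 in ES 1 to 3, and 10, 11 and 12 in MEFs 1 to 3. This was 1.81% to 6.93% of the 332 genes, against 2.57% to 13.9% of the other protein-coding genes in the same samples. The share was lower at Zfp genes in 14 of 14 samples, by a mean of −5.25 percentage points (SD 2.33, n = 14, range −9.31 to −0.762; exact paired permutation test, two-sided, p = 0.000122, the smallest p that 14 pairs allow). With the same number of peaks taken from each sample the mean difference was −2.21, and with 500 bp on each side of the start it was −4.85. Only 1 gene, Zfp180, had a 5′ peak in every sample (0.301% of members, 1.13% of other genes), 44 had one in some samples and 287 (86.4%) in none, against 74.8% of other genes with none.

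**Figure D1:**
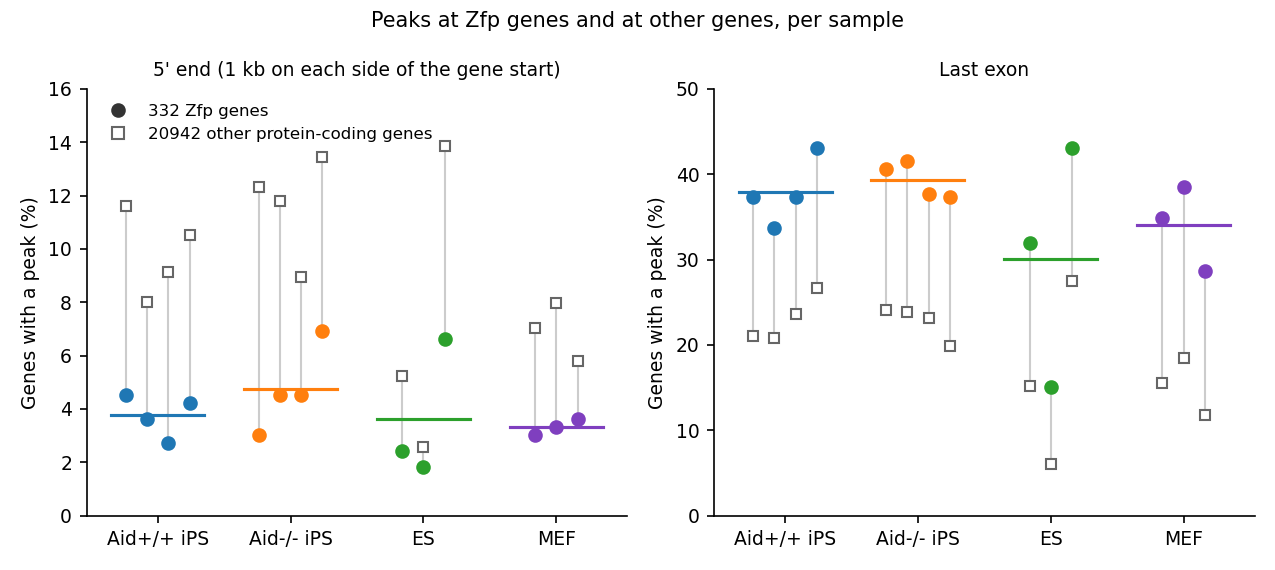
Percent of genes with a peak at the 5′ end (left) and at the last exon (right) for each of the 14 samples, by group. Filled circles are the 332 Zfp genes, open squares the 20942 other protein-coding genes and horizontal bars the group means; in every sample the Zfp genes sit below the other genes at the 5′ end and above them at the last exon.

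The last exon gave the opposite picture. The genes with a last exon peak numbered 124, 112, 124 and 143 in Aid+/+ clones 1 to 4, 135, 138, 125 and 124 in Aid-/- clones 1 to 4, 106, 50 and 143 in ES 1 to 3, and 116, 128 and 95 in MEFs 1 to 3. The share of Zfp genes was 15.1% (ES 2) to 43.1% (Aid+/+ clone 4 and ES 3), against 6.09% to 27.5% of other genes. It was higher at Zfp genes in 14 of 14 samples, by a mean of 15.9 percentage points (SD 2.81, n = 14, range 8.97 to 20.1; exact paired permutation test, two-sided, p = 0.000122, the smallest possible). The difference was 14.1 with equal numbers of peaks, 15.4 with peaks of p at most 1e-10 and 15.7 within the coding part of the exon. The plot of shares by sample shows both windows side by side. In total, 33 genes (9.94%; other genes 3.57%, 748 of 20942) had a last exon peak in every sample, 140 in some and 159 (47.9%; other genes 63.5%) in none.

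Last exons of Zfp genes were longer and held more CpGs than those of other genes, and the peaks moved with the CpGs. The median last exon was 2192.5 bp with 30.5 CpGs at Zfp genes and 957 bp with 13 CpGs at other genes, while the 5′ windows held a median of 60 and 62 CpGs. Zfp genes with a last exon peak in all samples held a median of 71 CpGs there, those with a peak in some samples 46 and those with none 16. At the same number of CpGs the last exons of Zfp genes did not always lead. With 10 to 24 CpGs, 6.72% of Zfp genes had a peak (mean of 14 samples) against 18.97% of other genes, and the Zfp share was lower in 13 of 14 samples. With 25 to 49 CpGs the shares were 40.8% and 38.3% (higher at Zfp genes in 13 of 14 samples), and with 50 or more CpGs they were 76.1% and 52.6% (higher in 14 of 14). These class means are given as descriptions, without a test. None of the Zfp genes with 100 or more CpGs in the last exon lacked a peak in all samples.

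The 5′ end differed from other genes at matched CpG number as well. In 5′ windows of 25 to 49 CpGs, 5.53% of 84 Zfp genes had a peak against 25.6% of other genes (lower in 14 of 14 samples), and in windows of 50 or more, the class of 196 Zfp genes, 3.75% against 7.10% (lower in 13 of 14). Windows with fewer than 25 CpGs seldom had a peak in either set.

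**Figure D2:**
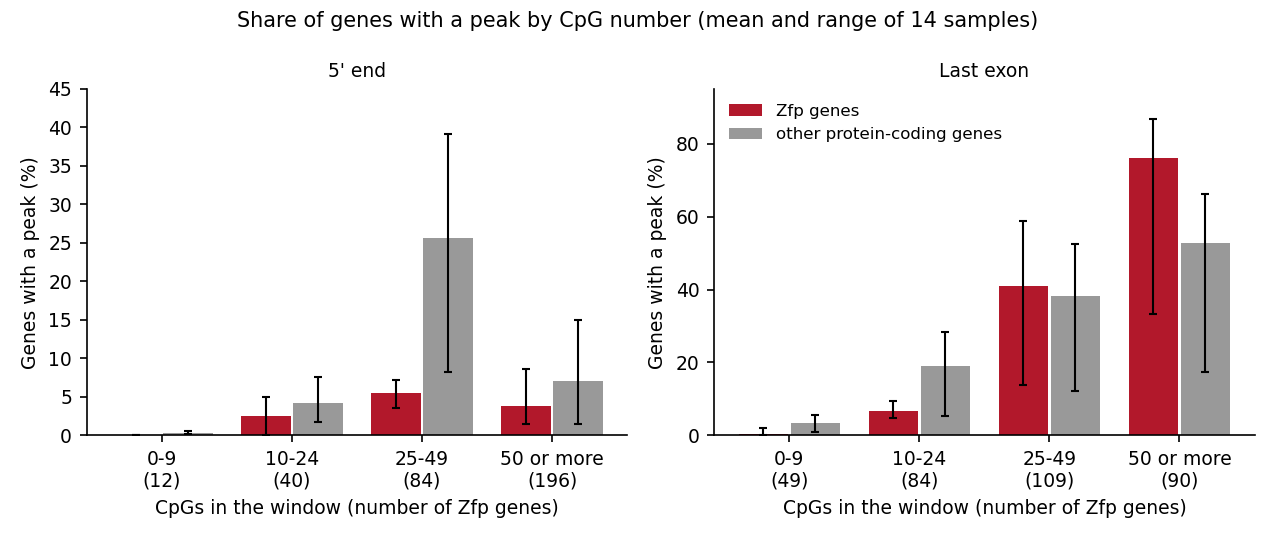
Percent of genes with a peak, in classes of the number of CpGs in the 5′ window (left) and in the last exon (right), for Zfp genes and for other protein-coding genes. Bars are means and whiskers the range over the 14 samples, and the number of Zfp genes in a class stands in brackets; in last exons of 50 or more CpGs the bars stand at 76.1% for Zfp genes and 52.6% for other genes, and in 5′ windows of 25 to 49 CpGs at 5.53% and 25.6%.

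Within the last exon, the peaks sat over the finger array. Of the 3374 fingers of all members, 2799 (83.0%) lay in a last exon. In the 262 genes with fingers there, the array, from the first finger to the last, took up 37.2% of its bases and 56.3% of its CpGs. CpGs were densest in the array, at 2.49 per 100 bases, against 1.82 in the rest of the coding part and 0.897 in the non-coding part. The summit of a peak, its highest point, fell in the array for 79.2% of last exon summits on average (75.0% to 87.3% over the 14 samples), in coding sequence before the array for 8.64%, after it for 4.91% and in non-coding sequence for 7.27%. In the 144 of these genes that carried a last exon peak the array held 36.0% of bases and 58.1% of CpGs. The share of summits over the array was 76.7% ± 1.92 (SD, n = 4) in Aid+/+ clones, 78.9% ± 1.04 (n = 4) in Aid-/- clones, 78.1% ± 0.20 (n = 3) in ES lines and 83.95% ± 3.12 (n = 3) in MEFs. The lowest MEF, at 81.2%, lay above the highest Aid+/+ clone, at 79.4%, a difference that was not tested. Over all members, 83.8% to 93.5% of last exon summits lay in coding sequence, against 66.9% to 80.8% at other genes, whose last exons are coding over 26.3% of their bases where those of Zfp genes are coding over 48.4%. This coding share was higher in MEFs than in Aid+/+ clones, without overlap, in both sets of genes. It was 92.9% (92.2% to 93.5%) against 85.3% (83.8% to 87.1%) at Zfp genes. At other genes it was 77.5% (74.6% to 80.8%) against 68.6% (66.9% to 72.3%).

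**Figure D3:**
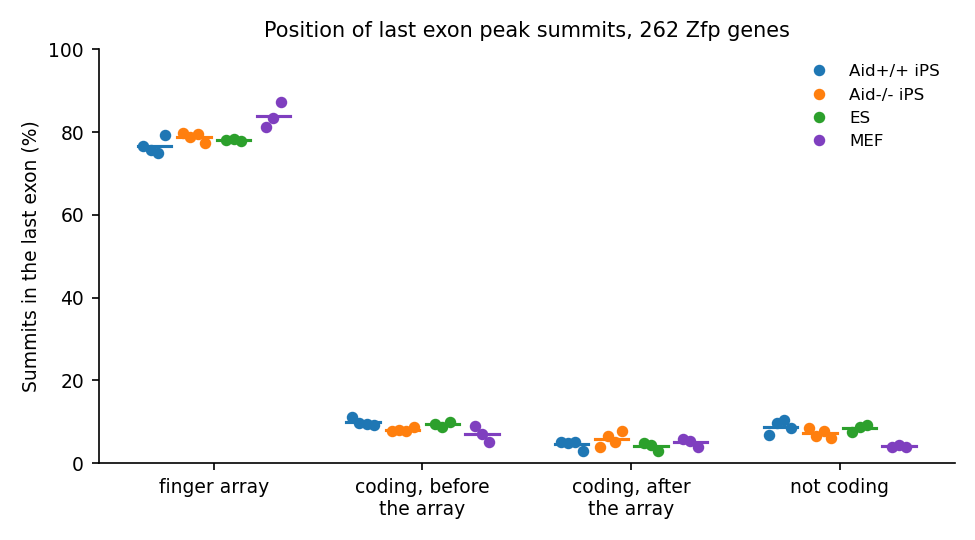
Percent of last exon peak summits that fell over the finger array, in coding sequence before or after it, and in non-coding sequence, for 262 Zfp genes. Each point is 1 sample, coloured by group, and short lines are group means; the points over the array lie between 75.0% and 87.3%, with the MEFs at the top.

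A last exon peak was less common among members with the KRAB pattern than among those without it, in each of the 14 samples. The difference was not tested. Here and below, with and without KRAB refer to the pattern, and a KRAB domain that departs from it would be missed. With KRAB the share was 27.5%, 27.5%, 30.99% and 37.3% in Aid+/+ clones and 26.1%, 27.5% and 16.9% in MEFs. Without KRAB it was 44.7%, 38.4%, 42.1% and 47.4% in the same clones and 41.6%, 46.8% and 37.4% in the same MEFs. The 2 sets of genes do not overlap in either cell type. KRAB members also held fewer CpGs in the last exon, with a median of 25.5 against 38. In last exons of 50 or more CpGs the mean shares were 76.8% of 24 KRAB genes and 75.9% of 66 others, in those of 25 to 49 CpGs 39.2% of 49 and 42.1% of 60, and in those of 10 to 24 CpGs 2.08% of 48 and 12.9% of 36. Related families with finger arrays under other names spread to both sides of the Zfp mean of 35.8%: a last exon peak was found on average in 62.9% of 35 Zbtb genes, 72.3% of 16 Klf genes, 31.8% of 24 Zscan and Zkscan genes, and 26.7% of 201 further genes with 5 or more fingers. At the 5′ end these sets stood at 8.98%, 5.36%, 6.85% and 4.83%, each above the Zfp mean of 3.92%.

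Gene clusters ranged from no marked last exon to nearly all of them marked. Runs of at least 5 Zfp genes with gaps under 250 kb numbered 15, and the 4 largest are shown. The largest, from Zfp712 to Zfp273 (chr13:67139530-67927937), held 17 genes of which 12 had KRAB, with a median of 18 CpGs per last exon. A single member, Zfp87, had a last exon peak there, in Aid+/+ clone 4 (12.82-fold over the local background) and ES 3 (6.64-fold), whereas 3 members had a 5′ peak in some sample. The run from Zfp677 to Zfp946 (chr17:21520712-22593656) held 15 genes, 13 with KRAB, with a median of 14 CpGs, and no last exon peak in any sample, although all 75-base words of a typical last exon in it were unique in the genome (median 100%). The run from Zfp84 to Zfp146 (chr7:30553571-30954746) held 14 genes, 10 with KRAB, but a median of 50.5 CpGs, and 12 of them had a last exon peak in at least 1 sample and 6 in all 14. On average 9.75 of its genes had one in Aid+/+ clones, 10.0 in Aid-/- clones, 9.0 in ES lines and 7.67 in MEFs. The run from Zfp180 to Zfp575 (chr7:24866943-25372660) held 12 genes in which the KRAB pattern was not found and a median of 45 CpGs. Of its genes, 10 were marked in at least 1 sample and 3 in all.

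Single members of the 2 chromosome 7 runs varied between groups. Zfp940 had fold enrichments of 36.04, 34.95, 43.15 and 27.99 in Aid+/+ clones, 39.56, 39.36, 35.9 and 30.43 in Aid-/- clones and 19.35, 15.29 and 36.86 in ES lines, while MEF 1 reached 8.05 and MEFs 2 and 3 had no last exon peak. Zfp61 and Zfp428 ran the other way, with a last exon peak in the 3 MEFs and ES 3 and in no other sample. The map of the 4 runs shows these values gene by gene.

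**Figure D4:**
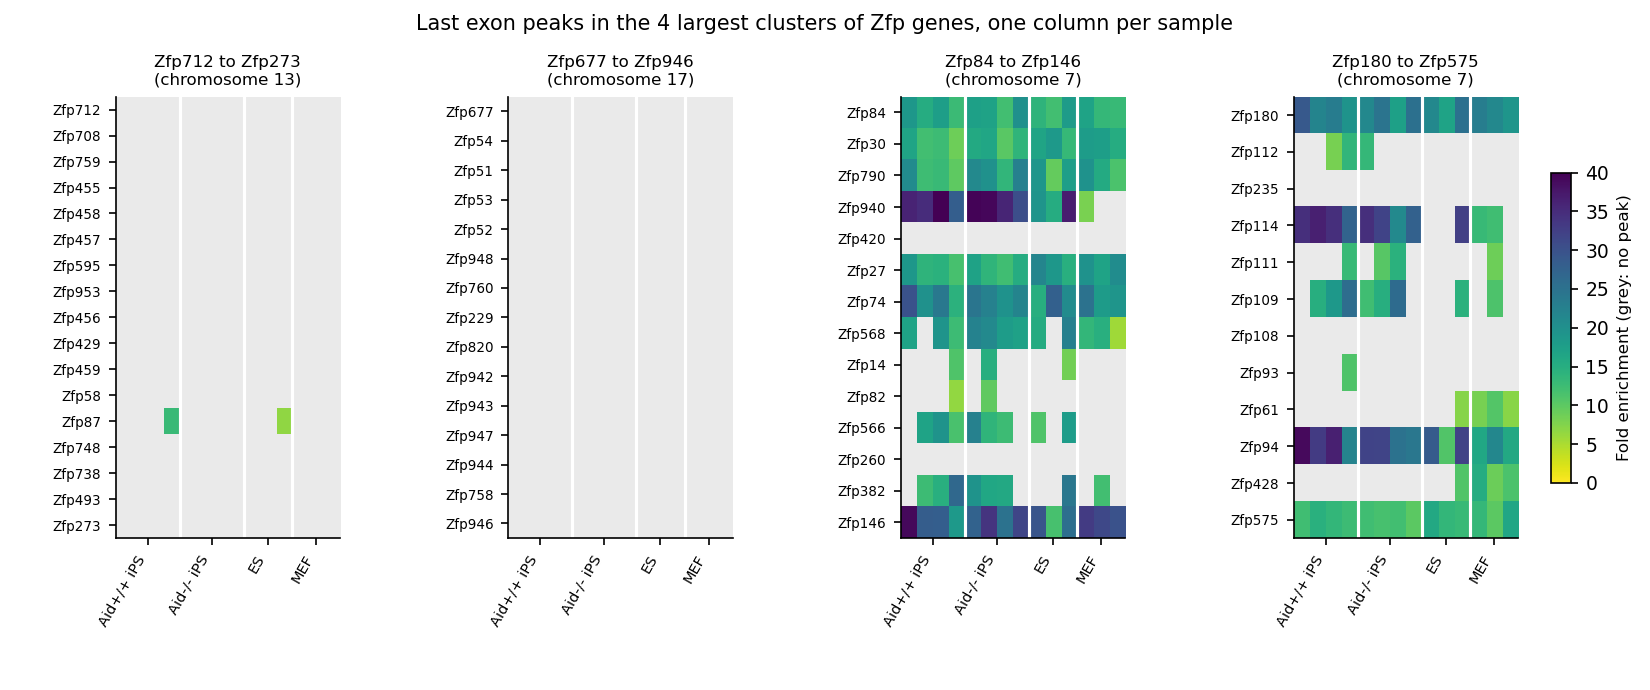
Fold enrichment of the last exon peak of each gene in the 4 largest runs of Zfp genes (rows, in genomic order) in each of the 14 samples (columns, by group). Colour runs from 0 to 40-fold over the local background and grey means no peak; the runs on chromosomes 13 and 17 are nearly all grey, the run from Zfp84 to Zfp146 is mostly coloured and the run from Zfp180 to Zfp575 is mixed.

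At the 5′ end the members were ranked by the number of samples with a peak. The 200 bases before the start of Zfp180 and 180 bases upstream of the start of Zfp953, the clearest 5′ difference between cell types, are printed on the strand of the gene with CpGs in capitals.
Zfp180, upstream of the start, chr7:24866743-24866942, plus strand: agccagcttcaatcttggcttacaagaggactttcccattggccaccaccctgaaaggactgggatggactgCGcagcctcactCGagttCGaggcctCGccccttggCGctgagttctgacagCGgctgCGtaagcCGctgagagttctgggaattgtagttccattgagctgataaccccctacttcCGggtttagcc
Zfp953, upstream of the start, chr13:67462107-67462286, minus strand: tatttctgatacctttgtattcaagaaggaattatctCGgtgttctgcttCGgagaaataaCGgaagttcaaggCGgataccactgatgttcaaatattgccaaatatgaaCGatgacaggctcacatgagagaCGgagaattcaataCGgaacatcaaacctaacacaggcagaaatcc
Zfp180 held 9 CpGs in these 200 bases, which lay under a peak in 11 samples, and its 5′ window as a whole in all 14. Its 5′ fold enrichment was 38.79, 32.81, 39.24 and 35.38 in Aid+/+ clones, 38.06, 38.17, 39.0 and 37.47 in Aid-/- clones, 36.74, 32.97 and 34.13 in ES lines and 28.51, 29.5 and 25.12 in MEFs. All 3 MEFs lay below all other samples. The median over all peaks was also lower in MEFs, at 12.32 to 14.55, than in Aid+/+ clones, at 14.65 to 16, while ES lines had 12.38 to 15.14. Over 5′ peaks of other genes the medians overlapped, at 12.91 to 14.83 in MEFs and 12.4 to 16.88 in Aid+/+ clones. Whether Zfp180 differed beyond this was not tested here. Zfp930 had a 5′ peak in 13 samples, all but ES 2, at 32.56-fold to 41.11-fold in Aid+/+ clones and at 17.34, 15.25 and 8.16-fold in MEFs. Zfp738 followed with 12 samples and Zfp498 with 11.

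At the last exon, members were ranked by the number of samples with a peak and then by their lowest fold enrichment, so the leading genes were marked in all samples by choice. Zfp623 had fold enrichments of 33.08, 28.69, 28.09 and 22.92 in Aid+/+ clones, 31.24, 27.64, 26.68 and 32.31 in Aid-/- clones, 28.79, 22.23 and 27.26 in ES lines and 34.21, 28.93 and 29.12 in MEFs. Zfp398 lay at 21.62 to 35.02 in Aid+/+ clones and 32.11 to 33.06 in MEFs. Zfp516, a regulator of brown fat genes, lay at 19.63 to 36.05 in the 14 samples, and Zfp180, marked at both ends, at 16.86 to 28.85. For Zfp623 and Zfp398 the values of MEFs and of Aid+/+ clones overlapped.

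A fixed list of 12 members, many with a known role, was then read. The list was chosen with earlier results of these data known. Zfp57, a KRAB protein that keeps imprints, had a last exon peak in 4 samples, at 10.99-fold in Aid+/+ clone 4, 10.38 in Aid-/- clone 2, 18.7 in ES 3 and 9.39 in MEF 2. Zfp445, which acts beside it on imprints, and Zfp809, which silences retroviral DNA, had no peak at either window in any sample, the last exon of Zfp445 holding 32 CpGs and that of Zfp809 only 2. Zfp568, a KRAB repressor of a placental Igf2 transcript, had a last exon peak in 12 samples at 5.76-fold to 22.63-fold. Zfp462 had one in 13 samples, all but ES 2, at 17.94-fold to 41.5-fold. Zfp143, an activator bound at promoters, and Zfp281, a regulator of pluripotent cells, had no peak at either window, although the last exon of Zfp281 held 91 CpGs. Zfp521 and Zfp865 also had none at either window, with last exons of 30 bp and 376 bp. Zfp423, which commits cells to the fat lineage, had a last exon peak only in the MEFs, at 14.96, 11.49 and 11.68-fold, and a 5′ peak only in Aid-/- clone 4, at 8.98-fold. Zfp36 encodes tristetraprolin, an mRNA decay factor whose fingers are not of the C2H2 kind, and had 1 peak, in ES 3, that touched both windows (16.29-fold). At these 2 windows the members thus ranged from no peak to peaks in nearly every sample. Over the whole gene and its flanks, Zfp521 had 52 peaks in the 14 samples together, Zfp865 13, Zfp445 10 and Zfp809 4. Zfp143 and Zfp281 had 0.

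Zfp784 had a last exon peak in all 8 iPS clones and all 3 ES lines and in no MEF. Its fold enrichments were 29.38, 29.65, 29.92 and 21.42 in Aid+/+ clones, 27.25, 25.41, 26.13 and 22.97 in Aid-/- clones and 13.31, 21.26 and 25.33 in ES lines.

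Aid+/+ and Aid-/- iPS clones were then compared, to ask whether loss of the deaminase changed methylation at Zfp genes. These Aid+/+ clones also serve the comparisons with MEFs and with ES lines below, so the 3 comparisons share samples. The share of genes with a 5′ peak was 3.77% ± 0.797 (SD, n = 4) in Aid+/+ clones and 4.74% ± 1.62 (n = 4) in Aid-/- clones, and the groups overlapped (exact permutation test, two-sided, p = 0.371). The share with a last exon peak was 37.9% ± 3.86 and 39.3% ± 2.12 (n = 4 each; exact permutation p = 0.571), again overlapping. The median fold enrichment of last exon peaks was 16.7, 17.1, 16.8 and 14.2 in Aid+/+ clones and 15.4, 16.1, 16.2 and 14.9 in Aid-/- clones (exact permutation p = 0.457). Adjusted over the 9 tests of this kind, every one of these p-values was 0.643, and the smallest p that 4 against 4 samples allow is 0.0286. Clones whose names begin with 979, a number that the study uses for an experiment, exist in both genotypes, and within them the last exon share was 40.2% and 41.1% and the 5′ share 3.46% and 3.77% for Aid+/+ and Aid-/-. Within the processing run that the headers show for Aid+/+ clone 1 and Aid-/- clones 1, 2 and 4, the last exon share was 37.3% and a mean of 39.9%.

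By the study's rule for differentially methylated regions (DMRs), a stretch shared by peaks of every sample of one group and touched by no peak of the other, 3 regions at Zfp genes were marked in the Aid+/+ clones only and 0 in the Aid-/- clones only. That was 0.404% of 743 Zfp regions where the share over all regions of chr1 to chr19 was 0.198%, and 0 where it was 0.042%. One lay in the last exon of Zfp362 (chr4:128451588-128451987, 294 of 400 bp in the exon), with fold enrichments of 12.87, 15.41, 11.92 and 6.83 from 24, 27, 17 and 14 tags. Other peaks in the same last exon were present in 3 of 4 Aid-/- clones. The other 2 were intronic, in Zfp112 (chr7:24905805-24906185, 11.82-fold to 15.67-fold) and Zfp82 (chr7:30845626-30845979, 11.75-fold to 17.05-fold). None of the 3 was left when only peaks of p at most 1e-10 were used or when equal numbers of peaks were taken. Without Aid+/+ clone 1 there were 12, without Aid-/- clone 3 there were 7, and without Aid-/- clone 1 there were 6.

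Tag counts were compared in regions that had a peak in all 8 clones, by edgeR's quasi-likelihood test with Benjamini-Hochberg adjustment over 48075 regions. Of 285 such regions at Zfp genes, 0 passed an adjusted p of 0.05 in either direction (all regions, 0.0% higher in Aid-/- and 0.00208% higher in Aid+/+). At an unadjusted p under 0.05, 8 were higher and 5 lower in Aid-/- clones, and DESeq2 and limma also called 0. The median log2 difference was 0.03 over Zfp regions, 0.08 over the 90 at last exons and -0.0029 over all regions. The last exon of Zfp775, which is described below for MEFs, had 8.73 ± 4.91 CPM (tags scaled to 1000000 tags in the regions of this comparison, so that CPM values of different comparisons are on different scales) in Aid+/+ clones and 19.5 ± 2.83 in Aid-/- clones (SD, 4 clones each), and this log2 difference of 1.17 did not pass adjustment.

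Aid+/+ iPS clones and MEFs, the cell type they were made from, were compared next. The last exon share was 34.0% ± 5.03 (SD, n = 3) in MEFs and 37.9% ± 3.86 (n = 4) in the clones (exact permutation test, two-sided, p = 0.4), and the 5′ share was 3.31% ± 0.301 and 3.77% ± 0.797 (exact permutation p = 0.514). The median fold enrichment of last exon peaks was 15.6, 14.8 and 16.2 in MEFs (exact permutation p = 0.457). All 3 have an adjusted p of 0.643, and the groups overlapped in each. MEFs had fewer peaks, 33500 to 54953 against 74815 to 106408. Set against the other genes of the same sample, the last exon share was 18.8 ± 1.76 points higher at Zfp genes in MEFs and 14.8 ± 1.80 points higher in the clones (exact permutation p = 0.0571, unadjusted). With equal numbers of peaks the shares were 30.1% in MEFs and 21.3% in the clones (p = 0.0571 by the same exact permutation test, unadjusted). The share of MEF peaks at Zfp genes that touched a last exon was 38.6% (36.5% to 39.7%), above the 27.3% (25.6% to 31.2%) of the Aid+/+ clones, and the part of all peak tags that lay at Zfp genes was 1.13% to 1.43% in MEFs and 0.616% to 0.653% in the clones. Neither pair of ranges overlapped, and the differences were not tested. The share of peaks at other genes that touched a last exon was not computed. The first difference is thus not shown to be particular to Zfp genes. Last exon summits at other genes averaged 2811 in MEFs and 4485.5 in the clones, where all peaks averaged 44675 and 90257. By CpG class, last exons of 25 to 49 CpGs were marked in 31.5% of Zfp genes in MEFs (21.1% to 40.4%) and 48.4% in the clones (40.4% to 58.7%), and those of 50 or more CpGs in 81.1% (75.6% to 86.7%) and 74.4% (63.3% to 83.3%), the highest MEF meeting the lowest clone in the first class and the ranges overlapping in the second. Other genes stood at 29.6% in MEFs and 44.4% in the clones in the first class, and at 49.6% and 55.4% in the second.

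Of 754 Zfp regions, 77 (10.2%) held a stretch marked in all Aid+/+ clones and in no MEF, where the share over all regions was 13.3%. In 19 (2.52%) a stretch was marked in all MEFs and in no Aid+/+ clone, where the share was 1.46%. Peaks of the other group could lie elsewhere in such a region. Whole regions free of such peaks numbered 74 and 18. Counted as stretches that themselves touch a Zfp gene, there were 77 and 18 DMRs, or 95. The stretches of the first kind lay mostly outside both windows (63 of 77, in 43 genes), with 13 at last exons and 1 at a 5′ end. Those of the second kind lay mostly at last exons (10 of 18), with 1 at a 5′ end and 7 elsewhere. Last exon regions held a stretch marked only in the clones in 13 of 190 (6.84%) and one marked only in MEFs in 10 of 190 (5.26%). The last exon stretches were shorter in the clones, with a median of 401 bp against 812.5 bp in MEFs. Without Aid+/+ clone 1 the DMRs numbered 165 and without MEF 2 they numbered 148, and with equal numbers of peaks there were 10 in the clones and 52 in MEFs, so the balance of the directions turned, as it did over all of chr1 to chr19 (17371 and 1895 stretches, and 2426 and 5451 with equal numbers of peaks).

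Among the last exons marked in the clones, Zfp784 came first by its lowest fold enrichment. The stretch spanned 637 bp (chr7:4987237-4987873), of which 539 bp lay in the finger array. Zfp81 (chr17:33471626-33471979, 354 bp, all in the array) had 19.58, 28.38, 32.58 and 36.28-fold in Aid+/+ clones and was also marked in 3 of 4 Aid-/- clones. Zfp353 (chr8:43166089-43166633) had 17.62 to 29.17-fold in non-coding sequence, in a last exon of which 72.3% of 75-base words were unique in the genome. Zfp46 (chr4:135849131-135849732) had 13.49 to 25.17-fold in its non-coding part, while the MEFs had peaks of 14.25-fold to 14.51-fold elsewhere in that exon. The only 5′ stretch was that of Zfp953 (chr13:67462000-67462394), whose centre lay at position −656 bp relative to its start, in an intron of Zfp456. Its fold enrichments were 33.94, 35.23, 38.8 and 24.72 in Aid+/+ clones, and the 5′ window was marked in 9 samples, all 8 iPS clones and ES 3, over the bases printed above.

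Among the last exons marked in MEFs, Zfp239 (chr6:117821191-117821990, 800 bp, 567 bp in the array) had 27.55, 28.03 and 21.85-fold in MEFs. Aid-/- clones 1, 2 and 4 had 11.28, 10.38 and 8.47-fold there, and ES 1 and ES 3 had 11.89 and 25.93-fold, so the stretch was lacking in the Aid+/+ clones, in 1 Aid-/- clone and in ES 2. Zfp324 (chr7:13555908-13557019, 1112 bp, 735 bp in the array) had 19.15, 18.18 and 17.57-fold in MEFs and was marked in the same 3 Aid-/- clones and in ES 1 and ES 3. Zfp341 (chr2:154471295-154471917) had 21.53, 18.42 and 13.45-fold. Zfp703 (chr8:28089738-28090602), a member in which no C2H2 finger was found, had 12.58, 12.73 and 13.5-fold. The only 5′ stretch, at Zfp846, reached 38 bp into the window from an intron. Zfp865 carried a MEF stretch of 2980 bp (chr7:4980954-4983933), of which 2856 bp were exonic but not in its last exon, at 6.6, 7.38 and 7.24-fold. Its neighbour Zfp784, 1300 bp away, was marked in the opposite direction.

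Where both cell types had a peak, tag counts could be compared. Of 140 Zfp regions with a peak in all 7 samples, 53 (37.9%) had a higher CPM in MEFs and 16 (11.4%) a lower one (edgeR quasi-likelihood test, adjusted p under 0.05), where 23.7% and 19.9% of all 21945 regions did so. At last exons 24 of 61 rose and 6 fell, at 5′ ends 3 of 5 rose and 0 fell, and elsewhere 27 of 76 rose and 10 fell, counted from the clones to the MEFs. The median log2 difference, MEF minus clones, was 0.27 at Zfp regions, 0.32 at last exons and −0.05 over all regions. The split of the calls rested on the scale. With the filtered tags of the file headers as library size, 14 Zfp regions were higher and 93 lower in MEFs (all regions, 5.7% and 78.5%), with medians of −0.97 at Zfp regions and −1.29 over all regions, and on the fold enrichment, tested in limma after log2, MEFs were higher in 8 and lower in 36 of the 140 (all regions, 5.15% and 26.8%), with medians of −0.15 and −0.27. The median of Zfp regions thus lay above that of all regions under each of these 3 scales. Of the 53 called higher in MEFs, 14 were also called higher with the header's tags and 9 were called lower. All 16 called lower kept their direction under both of these scales, and 15 of 16 with peak length as an offset.

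**Figure D5:**
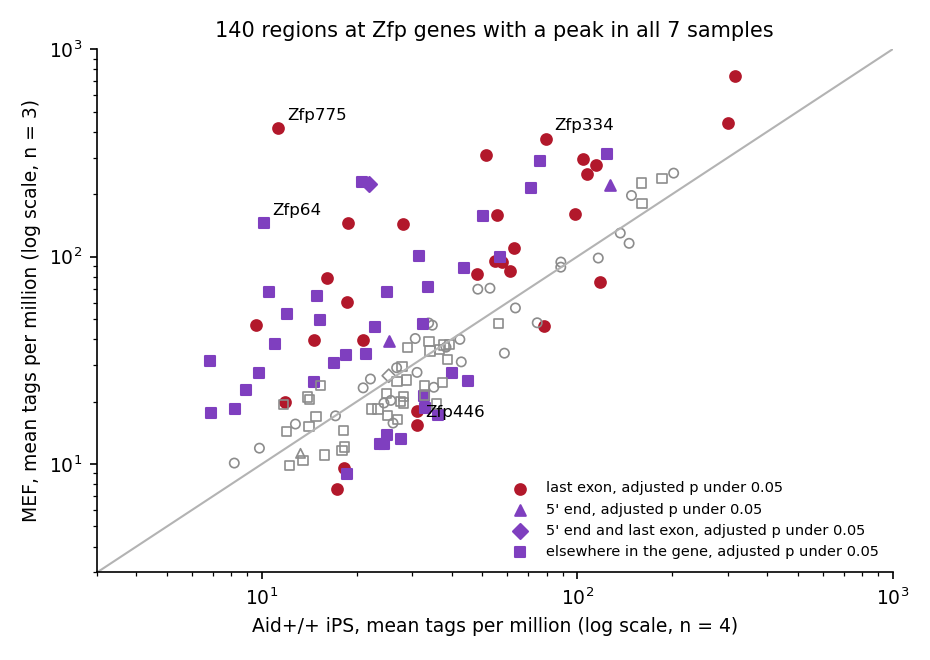
Mean tags scaled to a library of 1000000 (CPM) in Aid+/+ iPS clones (x axis, log scale, n = 4) and in MEFs (y axis, log scale, n = 3) for the 140 regions at Zfp genes with a peak in all 7 samples. Filled symbols passed an adjusted p of 0.05 in edgeR, open symbols did not, and marker shapes give the place in the gene; 53 filled points lie above the line of equality and 16 below it, with Zfp775 farthest above.

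The last exon of Zfp775 differed most (chr6:48569130-48571213, 1257 bp of it finger array). It held 15.2, 3.26, 9.91 and 16.7 CPM in Aid+/+ clones, from 84, 14, 47 and 53 tags, and 365, 342 and 539 in MEFs, from 1194, 973 and 1155 tags. No clone came near any MEF. The log2 difference was 5.21 (SE 0.37, edgeR adjusted p = 2.40e-07), and it was 3.93 with the header's tags (adjusted p = 1.18e-09) and 4.43 with peak length as an offset. The fold enrichment of its peaks, a measure of height, averaged 14.5 in the clones and 16.04 in MEFs (limma log2 difference 0.19, adjusted p = 0.568).

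A mostly intronic region of Zfp64 (chr2:168759343-168761549) held 9.98, 7.68, 9.48 and 13.6 CPM in Aid+/+ clones and 124, 121 and 191 in MEFs (log2 difference 3.84, SE 0.23, edgeR adjusted p = 7.21e-08; also higher in MEFs with the header's tags, 2.55, and in fold enrichment, 1.33). Part of that region, chr2:168759603-168760201, was marked in the clones and in no MEF, so parts of the same region differed in opposite directions. An intronic region of Zfp277 (chr12:41102989-41104356) held 10.52 ± 0.538 (n = 4) and 67.5 ± 7.06 (n = 3), with a log2 difference of 2.68 (SE 0.18, edgeR adjusted p = 1.46e-07). In the last exon of Zfp513 (chr5:31501540-31503359) the clones held 37.9, 24.9, 20.9 and 28.1 CPM and the MEFs 140, 135 and 154 (log2 difference 2.35, SE 0.20, edgeR adjusted p = 1.17e-06). For all 4 regions the lowest MEF lay above the highest clone, and each was called higher in MEFs with the header's tags too. Zfp334 had 2 regions touching its last exon that differed in opposite directions, 1 higher in MEFs by 2.21 (79.8 ± 18.1 and 370 ± 50.7 CPM) and 1 lower, at a log2 difference of −0.92. Of the 1131 bp of the lower region, only 194 lay in the last exon and 0 in its coding part.

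Lower in MEFs were the last exon of Zfp446 and intronic regions of Zfp536 and Zfp644. Zfp446 (chr7:13567324-13568219) held 27.4, 32.3, 31.2 and 33.2 CPM in Aid+/+ clones and 13.5, 16.9 and 15.9 in MEFs (log2 difference −1.01, SE 0.20, edgeR adjusted p = 0.00177), and its values did not overlap. It lay 3611 bp from Zfp324, whose last exon was marked in MEFs and in no Aid+/+ clone. Zfp536 had 2 such regions (−1.05 and −1.06, edgeR adjusted p = 0.00559 and 0.00635) beside another region of the gene that was higher in MEFs (1.79), and Zfp644 had 1 (−0.95, adjusted p = 0.00646). All 4 kept their direction under the 3 other scales, of which the header's tags and the fold enrichment lowered the median of all regions in MEFs too. Zfp180 differed at its 2 ends: the 5′ region held 25.3 ± 5.94 CPM in Aid+/+ clones and 39.1 ± 8.33 in MEFs (log2 difference 0.61, edgeR adjusted p = 0.0424), and the last exon 118 ± 30.9 and 75.7 ± 6.09 (−0.64, adjusted p = 0.0290). The 5′ difference turned to −0.66 with the header's tags and to −0.40 in fold enrichment, and that of the last exon to 0.37 with peak length as an offset. Zfp623 (0.71) and Zfp398 (0.77), marked at their last exons in all 14 samples, were higher in MEFs on the main scale and lower with the header's tags (−0.56 and −0.50).

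Aid+/+ iPS clones and ES lines, both pluripotent, were compared last. The last exon share was 31.9%, 15.1% and 43.1% in ES 1 to 3, a mean of 30.02% ± 14.1 (SD, n = 3), and ES 1 and ES 2 lay below every Aid+/+ clone while ES 3 equalled the highest (exact permutation test, two-sided, p = 0.457). Without ES 2 the difference from the Aid+/+ clones was −0.377 points. The adjusted p was 0.643. The 5′ share was 3.61% ± 2.63 (exact permutation p = 1.00, adjusted 1), and the median fold enrichment of last exon peaks was 14.2, 12.2 and 15.5 (exact permutation p = 0.114, adjusted 0.643). By the DMR rule 6 of 809 Zfp regions (0.742%; all regions 0.86%) were marked in all Aid+/+ clones and in no ES line, each in an intron (Zfp366, Zfp521, Zfp442, Zfp362, Zfp398 and Zfp423), and 0 in the ES lines only (all regions 0.0349%). Neither window of any Zfp gene held one. Without ES 3, the line with the most peaks, there were 92 of 18083 over all of chr1 to chr19, of which 14 lay at last exons and 3 at 5′ ends, without Aid+/+ clone 1 there were 17 and without ES 2 there were 10.

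In regions with a peak in all 7 of these samples, 0 of 124 Zfp regions passed an adjusted p of 0.05 in edgeR (all 22634 regions, 0.0133% higher and 0.00442% lower in ES lines). At an unadjusted p under 0.05, 7 were higher and 7 lower in ES lines, and DESeq2 called 1, higher in ES lines. Without ES 3, 4 of 125 were higher and 12 lower in ES lines in edgeR, where 3.61% and 6.66% of all 22871 regions were. The median log2 difference, ES minus clones, was −0.12 at Zfp regions, −0.26 at the 44 last exon regions and −0.03 over all regions.

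The genes for the partners of KRAB proteins and for the enzymes that write the mark were read in the same way, as a list of 12. At the last exon, a peak was found in 13 samples for Dnmt3a, a de novo methyltransferase (21.0-fold to 32.5-fold, all but ES 2), in 11 for the maintenance enzyme Dnmt1 and for Morc3, in 9 for Dnmt3b, in 5 for Cbx5 and in 3 for Cbx3. Trim28, Setdb1, Cbx1, Uhrf1, Daxx and Smarcad1 had none there. At the 5′ end, Cbx5 was marked in 3 samples, the histone methyltransferase Setdb1 in MEFs 2 and 3, Trim28 in Aid+/+ clone 1 and Dnmt3a in Aid-/- clone 1, and the other 8 genes in none.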

How the data were processed

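MBD-seq of 14 samples gave 1 peak list each. Per the labels and methods, the authors mapped 75-base reads to mm9 with BWA 0.5.9rc1 after CASAVA 1.8.1, and per the file headers they called peaks in each sample alone with MACS (1.4.1 in 9 files, 1.4.0rc2 in 5) at p of 1e-05, with no control and at most 2 tags per position. The deposited columns used were the tag count of a peak, its −log10 p-value times 10, and its fold enrichment, a ratio to the local background. Header names and MACS versions set 4 processing runs: run A held Aid+/+ clone 1 and Aid-/- clones 1, 2 and 4, run B Aid+/+ clones 2 to 4, run C Aid-/- clone 3, the ES lines and MEF 1, and run D MEFs 2 and 3, so run and group cannot be told apart in most comparisons.

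Genes came from GENCODE vM1 on NCBIM37. Of the Zfp genes, 68 shared a window with another gene and 10 last exons (3.01%) overlapped the 5′ window, against 15.8% at other genes. A peak in such an overlap counted for both windows, and its part in the 5′ difference was not tested. In translated coding sequences, a finger was 2 cysteines 2 to 4 residues apart, 12 residues, and 2 histidines 3 to 5 apart. KRAB was found by a pattern of conserved residues, so a domain that departs from the pattern counted as absent. Of the last exons, 282 had over 95% and 9 under 50% of their 75-base words unique in the genome. Shares per sample were tested by exact permutation, two-sided, with Benjamini-Hochberg adjustment over 9 tests. Tags of peaks were summed per merged region, and regions with a peak in every sample compared were fitted with edgeR 4.0.16 (R 4.3.3, TMM), with DESeq2 1.42.0 and limma 3.58.1 as alternatives; this step was tested on simulated data. CPM values are relative to the tags in the regions tested, 3186002 to 6807281 per sample between genotypes, 2504150 to 5360468 with MEFs and 2131461 to 5067871 with ES lines. Python 3.11.15, scipy 1.17.1 and biopython 1.88 did the rest.

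The members and gene lists were chosen with earlier results of these data known. Genes were named by rule: a list of 12 members, up to 4 DMR genes per comparison, direction and window by their lowest fold enrichment, up to 4 regions per comparison and direction by edgeR's adjusted p, the 4 most marked genes at each window, the 4 largest clusters, and 12 cofactor genes. Other genes and the printed sequences were chosen after their values were seen. Alternatives changed windows, thresholds, peak numbers, scales, tests and samples. Peaks at the disrupted gene are not reported here.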

Additional observations from a re-analysis of the deposited data

Results flagged for a closer look

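In the median fold enrichment of last exon peaks at Zfp genes, Aid+/+ iPS clone 4 stood apart from the other 3 Aid+/+ clones. Its value was 14.2, at the low end of a group range of 14.2 to 17.1, and its gap to the nearest clone was 0.848 of that range, above Dixon's 95% critical value for 4 samples. It also had the most peaks of all samples, 106408. Chance flags about 1 in 20 groups, and 16 groups were looked at. The part of peak number in this value was not tested.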

How the results depend on the processing

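The labels number no replicates across groups, but clone names share a series number, and the genotype fit with that series as a block called 0 regions, as without it. Differences are the second group minus Aid+/+ clones, in percentage points for shares. With equal peak numbers, the 5′ share turned to −0.301 in Aid-/- clones, 0.778 in MEFs and 0.276 in ES lines, and the last exon share to 8.81 in MEFs and 0.0753 in ES lines. Minus other genes, the 5′ share turned to −0.821, 2.43 and 2.45 in the same order and the last exon share of MEFs to 3.98. Counting any annotated start turned the Aid-/- 5′ share to −0.151, and subtracting the median of all peaks turned the MEF fold enrichment to 1.82. None of these 5′ or last exon differences had an exact permutation p under 0.05. Against MEFs and ES lines none could, since 4 against 3 samples allow no p below 0.0571 in that test. The cause of these turns was not tested. DMR counts fell to 0 for genotype with p at most 1e-10 and with equal peaks, to 62 for MEFs with equal peaks, and to 3 and 2 for ES lines. The MEF calls numbered 107 with header tags and 44 with limma, and ES calls numbered 1 with DESeq2. Leaving out 1 sample at a time gave 5′ differences of 0.251 to 1.56 (Aid-/-), −0.803 to −0.201 (MEF) and −1.66 to 0.753 (ES), last exon differences of 0.0502 to 3.16, −6.10 to −1.13 and −14.4 to −0.377, and fold enrichment differences of −1.26 to −0.288, −1.35 to −0.313 and −3.03 to −1.39. DMRs then numbered 3 to 12, 97 to 165 and 6 to 92, and tag calls 0 to 1 (1 without Aid+/+ clone 1), 52 to 83 and 0 to 16. Apart from leaving out samples, 60 other results under an alternative kept direction and call, 11 reversed and 8 moved. With 1 sample left out, 98 held and 12 moved. For shares and fold enrichment, a result held within 1 SD against MEFs and ES lines. Between genotypes it held when direction and call were kept. Counts held within 1.5 times. The 5′ difference of ES lines changed sign without Aid+/+ clone 1 (0.100), ES 1 (0.452) or ES 2 (0.753), and was 0 without Aid+/+ clone 4. Peaks were called without a control, so a region lacking a peak at low depth is not shown to lack methylation.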
